A study of Mus musculus with 4 samples.

Results

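Chemokines, interleukins and the other small cytokines named here were followed in cultured mouse skin epithelial cells. The genes were taken by name from the annotation of the arrays: every CC or CXC chemokine with a number, Cx3cl1, every interleukin with a number and at most 1 letter from a to f, Tnf, Tslp, and the colony-stimulating factors Csf1, Csf2 and Csf3. Receptors were left out. This gave 72 genes with 83 probes on 155 spots, of 31896 genes with 39429 probes on 43020 spots in all. The rule uses names only, and it was set with earlier results of these data known.

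The cells came from adult C3H/HeN mice and were sorted by flow cytometry for CD49f (integrin alpha 6) and CD34, a pair of surface proteins used to enrich stem cells of the hair follicle. The 0p-EpSCs were sorted cells from primary skin epithelial cultures, and the 15p-EpSCs were sorted after 15 successive cultures of 10 days with Wnt-3a in collagen-coated dishes. Both RNAs carry Wnt-3a as their treatment in the labels, and whether the 0p cells had been cultured with it is not settled by them. Each array held RNA of both kinds in different dyes, and 2 biological replicates were each run on a pair of arrays with Cy3 and Cy5 exchanged (4 arrays). Nothing in the labels ties the replicates to separate animals. A p-value here rests on the spread between these 2 replicates, which may be technical, and limma pools that spread over the tested genes. The comparison addresses how transcript levels at the end of serial culture stood against those at its start.

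Chemokines are small secreted proteins that draw leukocytes along a gradient through G protein-coupled receptors, and interleukins and colony-stimulating factors act on cells through receptors that mostly signal by JAK-STAT or NF-kappaB. Keratinocytes are a source of several of them. They store interleukin 1 alpha and interleukin 18, and release neutrophil-attracting CXC chemokines, interleukin 1 family members and thymic stromal lymphopoietin on injury.

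A probe was taken as well above background by the scanner software's own flag, and a gene was tested if a probe passed on all 4 arrays in 15p or in 0p RNA. Of the 72 genes, 30 passed (41.7%), against 54.5% of all genes on the array. All 30 passed in both RNAs. The other 42 genes have no ratio here. Because the samples are bulk RNA, fewer cells of a type and less RNA per cell cannot be told apart.

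The first sequences shown are stretches of the probes that the text returns to, since what a probe matches decides what its signal can stand for. Positions are in mouse build mm9, as the files give them, and bases are counted from 1 at the probe's 5′ end. The Cxcl11 probes lie at chr5:92788567-92788626 and chr5:92788640-92788699 on the minus strand. Capitals mark stretches of 16 or more bases that also stand in the probe of another gene. The Cxcl11 probe that represents the gene shares such stretches with 11 probes of 11 other genes, and with 55 of 32851 RefSeq promoters (0.167%). The other Cxcl11 probe shares them with 1 probe and 10 promoters. The letters read like B1, a short interspersed repeat spread through the mouse genome; no repeat annotation was used here.
Cxcl11, bases 15 to 44 of the probe that represents the gene: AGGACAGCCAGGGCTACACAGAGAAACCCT
Cxcl11, bases 16 to 45 of its other probe: cagcacttgaaAGGCAGAGGCAGGAGGATC

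Only 5 of the 83 probes of these genes (6.02%) share 16 bases with a probe of another gene name, against 15.8% of all probes. Each of the next probes shares none. They stand for Ccl25, Il1a and Cxcl5, with 3 of the 4 lowest mean ratios, at chr8:4359916-4359975, chr2:129125994-129126053 and chr5:91190490-91190549, and for Il16, which alone was positive on every array, at chr7:90791654-90791713. The files do not place them in exons or untranslated regions.
Ccl25: gaggaacgagaggatagtgagtgtgtgaga
Il1a: aatgccagttgagtaggataaaggtataag
Cxcl5: gctgagatatttagatgtctgtagtgtgtc
Il16: aacagttctgtgagatgcaccctgccatga

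AU-rich elements in the tail of an mRNA speed its decay and are known from many cytokine mRNAs. The letters TATTTAT, searched on the transcript strand of each probe, stood in 9 of the 83 probes (10.8%) and in 481 of all 39429 probes (1.22%). Of the 30 probes that stand for tested genes, 2 held them, those of Cxcl2 and Il11. Il10 and Il12a, shown for comparison, did not pass on any array. Capitals mark the motif once in each stretch.
Cxcl2: atttttaaaccTATTTATtcattagtttct
Il11: tcttcctcacttcctacatTATTTATtaaa
Il10: tctctccgaaaTATTTATtacctctgatac
Il12a: gtacatgagccTATTTATatttatttattt

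Promoter sequence could be matched for 49 of the 72 genes in RefSeq (build GRCm38.p6, 250 bases before to 50 after the start). GGNNTTTCC, a pattern related to the binding motif of NF-kappaB, was searched on both strands. It stood in a promoter of 14 of the 49 genes (28.6%), against 6.62% of all 27025 genes with a promoter and 5.82% of all promoters of this length. Among tested genes the share was 6 of 16 (37.5%), and among genes not tested 8 of 33 (24.2%). A match is a description of letters and not a site. Windows of 60 bases before the start are shown for the neutrophil-attracting chemokines Cxcl1, Cxcl2 and Cxcl3, which were measured in both RNAs, and for Cxcl10 and Il6, which were not measurable on most arrays. They run 5′ to 3′ on the gene's strand, and capitals mark each match on either strand. In genome order these windows are chr5:90891150-90891209, chr5:90903797-90903856, chr5:90786004-90786063, chr5:92349013-92349072 (minus strand) and chr5:30013046-30013105.
Cxcl1: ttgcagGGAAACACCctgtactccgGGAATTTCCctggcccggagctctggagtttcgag
Cxcl2: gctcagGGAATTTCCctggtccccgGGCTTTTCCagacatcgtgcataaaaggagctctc
Cxcl3: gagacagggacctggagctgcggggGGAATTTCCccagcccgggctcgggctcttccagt
Cxcl10: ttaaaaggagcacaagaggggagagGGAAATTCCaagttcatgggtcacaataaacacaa
Il6: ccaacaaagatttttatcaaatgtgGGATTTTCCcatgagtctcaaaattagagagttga

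Probes for a limited set of cytokines gave measurable signal, and each tested gene was above background in both 15p and 0p RNA. The set includes Cxcl11, whose probes share stretches with those of other genes. It also includes Il22 and Il28b, whose representing probes match 2 genes each. Of 34 interleukins 14 were tested, 7 were well above background on 1 to 3 arrays and 13 on none. For CC chemokines these counts were 5, 7 and 7 of 19, and for CXC chemokines 6, 2 and 5 of 13. All 3 colony-stimulating factors and Cx3cl1 were tested, and so was Tslp, the epithelial cytokine that primes dendritic cells. Tnf was above background on no array.

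**Figure D1:**
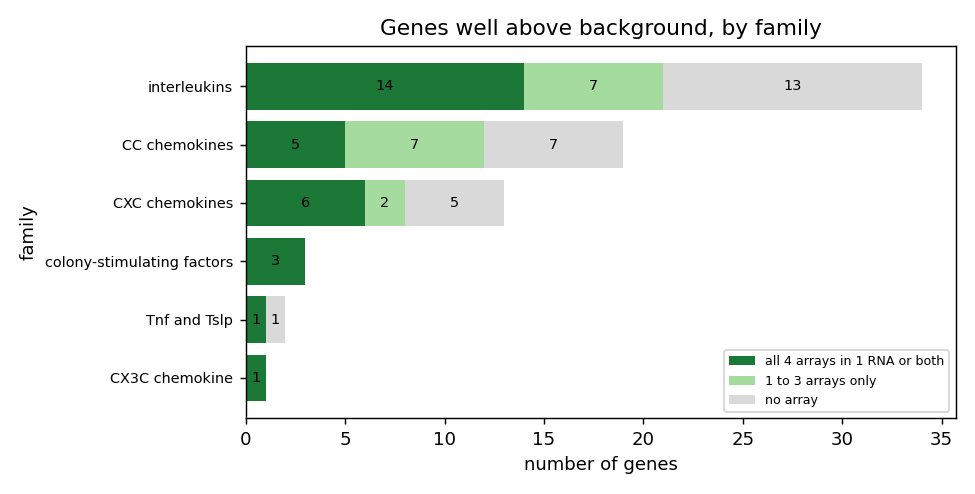
Number of genes by family (horizontal axis, genes) that were well above background on all 4 arrays in 1 RNA or both, on 1 to 3 arrays only, or on none. All 3 colony-stimulating factors were above background on all arrays, against 14 of 34 interleukins, 6 of 13 CXC chemokines and 5 of 19 CC chemokines.

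The classic early inflammatory cytokines were at or near the level of negative controls in both RNAs. Tnf, measured on 10 spots, had mean spot intensities from 54.9 to 62.3 in Cy5 and from 51.8 to 84.2 in Cy3. Negative control spots had 95th percentiles from 54.8 to 62.1 in Cy5 and from 53.6 to 85.5 in Cy3. Il1b, also on 10 spots, had 58.0 to 68.3 in Cy5 and 53.0 to 85.1 in Cy3, and Il6 had 45.9 to 51.1 and 47.8 to 77.9. Il6 stayed below these percentiles on every array. On the replicate 2 array with 15p in Cy3 the controls' percentile in Cy5 was 57.7, which Tnf (62.3) and Il1b (68.3) exceeded. Il1b also exceeded it in Cy3 on that array (75.7 against 68.6) and in Cy5 on the other array of replicate 2 (58.0 against 54.8). Tnf exceeded it marginally in Cy5 on that other array (54.85 against 54.83). Neither gene carried the flag on any array. The same flag was missing on all arrays for the T cell cytokines Il4, Il13 and Il17a, for the regulatory cytokine Il10, for the subunits Il12a and Il12b of interleukin 12, and for Cxcl9, Cxcl14 and Ccl22.

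Other genes lay at the edge of detection. Ccl17, a chemokine for skin-homing T cells, and Il33, an alarmin of barrier epithelia, were well above background on 3 arrays in each RNA. Ccl17 had Cy5 intensities from 86.9 to 106 and Il33 from 82.8 to 94.3. Some tested genes were about as dim in Cy5: Ccl6 (87.5 to 115), Il16 (90.1 to 112), Il11 (95.3 to 109) and Csf3 (94.0 to 132). Ccl20, which attracts Langerhans cell precursors, and the interferon-induced Cxcl10 passed on 1 array in each RNA. Cxcl12, the ligand of Cxcr4, passed on 1 array in 0p RNA and on none in 15p RNA, by 1 of its 2 probes. A gene that passed on few arrays has no tested ratio, and these counts do not show a difference between the RNAs.

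No chemokine or cytokine gene was called different between 15p and 0p cells. With limma and Benjamini-Hochberg adjustment at 0.05, 0 of the 30 tested genes passed, and 0 of all 17374 genes did (0%). The lowest adjusted p was 0.749, both among these genes and among all. At an unadjusted p under 0.05 there was 1 of the 30, Ccl25, where 6.3% of all tested genes reached that level. Mean log2 ratios of 15p over 0p ran from -0.15 to 0.11, with a median of 0.0057 over the 30 genes, 16 of them positive and 14 negative. Over all tested genes the median was 0.0025 and the range -0.59 to 0.47. The SD over genes was 0.074 for the 30 and 0.076 for all.

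With the dyes taken as labelled, limma's intervals from the main ratios held small differences only. For all 30 genes the 95% interval of limma lay within a 1.5-fold difference either way, as it did for 99.7% of all tested genes. Its median half-width was 0.12 on the log2 scale for the 30 genes and 0.12 for all. The interval rests on 1 residual degree of freedom, with limma's prior adding 8.89 from the other genes. Its width thus comes mostly from the spread of other genes. Both replicate values of Cxcl11, 0.30 and -0.21, lay outside its interval of -0.17 to 0.27. In the processed signals the Il16 mean of 0.24 lay above its interval in the main ratios, -0.024 to 0.22. Larger differences are therefore not excluded for single genes.

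**Figure D2:**
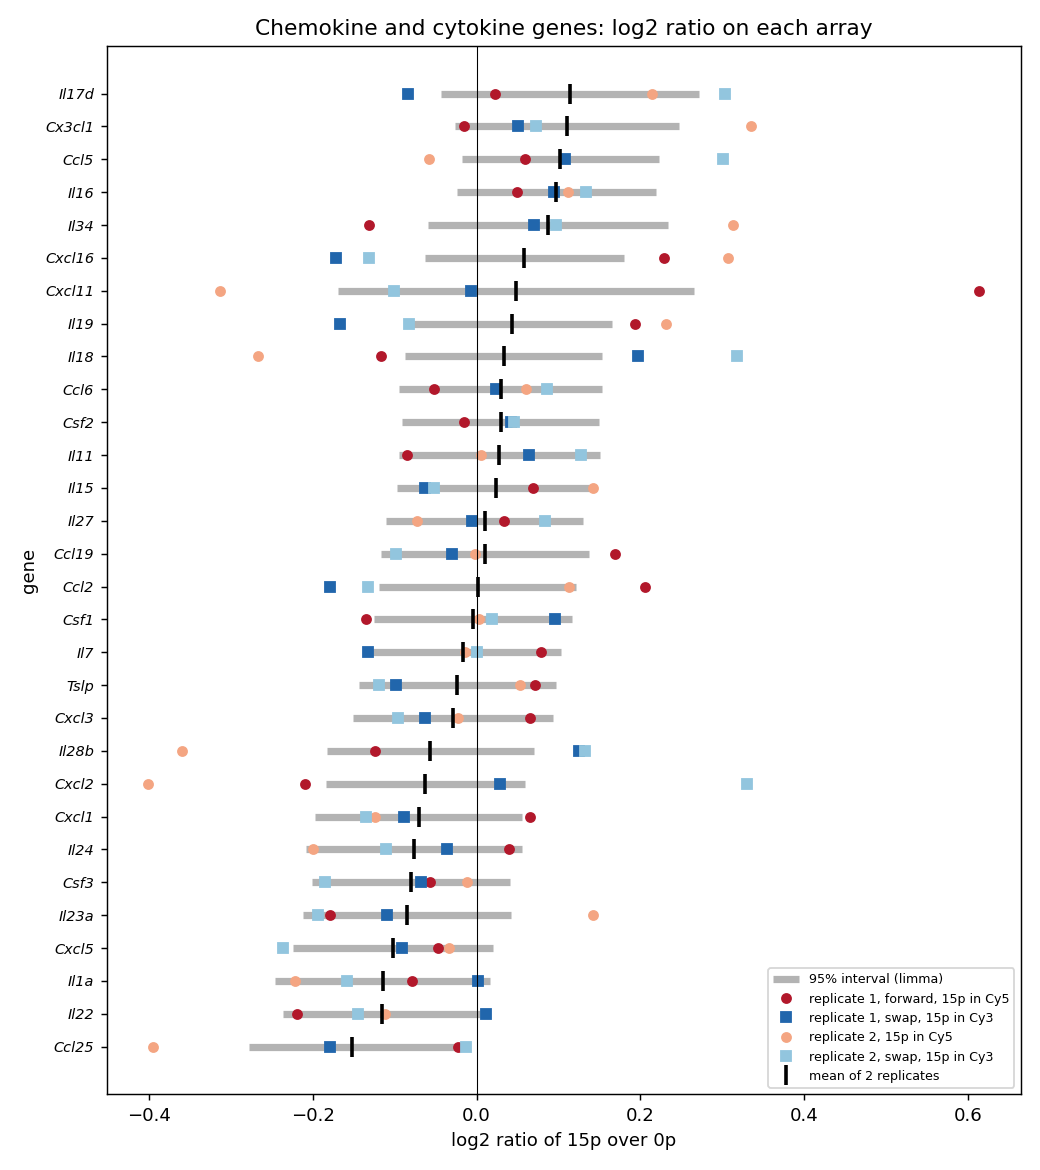
Log2 ratio of 15p over 0p for the 30 tested genes, ordered by mean. Circles are forward arrays (15p in Cy5) and squares their swaps (15p in Cy3), black bars the mean of 2 replicates and grey bars the 95% interval of limma; the means lie between -0.15 and 0.11, and single arrays reach 0.61 for Cxcl11.

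The array that carries 15p RNA in Cy5 is called the forward array of a replicate, and the other its swap. In what follows, 4 log2 ratios of 15p over 0p are given for a gene in a fixed order: forward and swap of replicate 1, then forward and swap of replicate 2. The mean ± SD is over the 2 replicates, each the average of its pair of arrays.

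Among the CXC chemokines that bind Cxcr2 and attract neutrophils, the mean ratios of Cxcl1, Cxcl2, Cxcl3 and Cxcl5 were all below 0, and none passed the test. Cxcl5 had -0.048, -0.091, -0.033 and -0.24, negative on all 4 arrays. Its mean was -0.10 ± 0.046 (SD, n = 2; limma, adjusted p = 0.752), with a 95% interval from -0.22 to 0.020. Of all tested genes 3.11% had a negative ratio on every array, and of the 30 genes 3 did, the others being Ccl25 and Csf3.

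Cxcl1 had 0.065, -0.089, -0.12 and -0.14, positive on 1 array and negative on 3, with a mean of -0.071 ± 0.083. The ratios of Cxcl2 were -0.21, 0.028, -0.40 and 0.33, so both forward arrays were negative and both swaps positive (mean -0.063 ± 0.039, and -0.18 in the software's processed signals). A probe for Cxcl3 gave 0.065, -0.063, -0.023 and -0.096 (mean -0.029 ± 0.043). The spread of single arrays was wider than each mean in these 3 genes.

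Cxcl16, a membrane-anchored chemokine for Cxcr6, was high on both forward arrays and low on both swaps. Its values were 0.23, -0.17, 0.31 and -0.13, and the mean was 0.058 ± 0.043. Its receptor gene Cxcr6 was tested as well and had a mean of -0.060 ± 0.092. Cxcl11, an interferon-induced ligand of Cxcr3, had 0.61, -0.0069, -0.31 and -0.10, the widest spread of the 30 (mean 0.048 ± 0.36). Its forward arrays opposed each other.

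The Cxcl11 probe with the shared stretches shown above had mean spot intensities from 134440 to 208366 in Cy5 and from 40912 to 82572 in Cy3, and no spot was saturated. How much of this signal comes from Cxcl11 mRNA was not tested. Its other probe had 0.20, 0.18, -0.13 and 0.085, with a mean of 0.086.

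Cx3cl1, or fractalkine, the membrane-bound ligand of Cx3cr1, had -0.015, 0.051, 0.34 and 0.073. Its mean of 0.11 ± 0.13 (95% interval -0.026 to 0.25; limma, adjusted p = 0.752) came mostly from the forward array of replicate 2, and replicate 1 averaged 0.018. Cx3cr1 was well above background on no array.

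The CC chemokines held Ccl25, the lowest mean of the 30 in these ratios, and Ccl5, one of the highest. Il22 was lower than Ccl25 with a normexp offset of 16 (-0.18 against -0.17) and in the processed signals (-0.21 against -0.18). Ccl25, which attracts gut-homing T cells and thymocytes through Ccr9, had -0.023, -0.18, -0.40 and -0.013, all below 0. On 2 of these arrays the ratio was near 0. The mean was -0.15 ± 0.073 (SD, n = 2), with a 95% interval from -0.28 to -0.027, an unadjusted p of 0.0219 and an adjusted p of 0.749 (limma). Leaving out the array with the lowest value, the forward array of replicate 2, brought the ratio to -0.060.

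Ccl5, a chemokine for T cells and monocytes, had 0.059, 0.11, -0.058 and 0.30, positive on 3 of 4 arrays, with a mean of 0.10 ± 0.027. Its SD is small because the arrays of replicate 2 averaged out. Ccl2, the main monocyte attractant and measured on 10 spots, had 0.21, -0.18, 0.11 and -0.13. Both forward arrays were positive and both swaps negative, and the mean was 0.0015 ± 0.016. Ccl6 had a mean of 0.030 ± 0.061, and of 0.073 in the processed signals. Ccl19 had 0.0098 ± 0.084, a sign that turned when its 2 measured probes were averaged and in the processed signals.

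The interleukin 1 family was represented by Il1a and Il18, the forms that keratinocytes hold in store. Il1a had -0.079, 0.0012, -0.22 and -0.16, negative on 3 arrays and close to 0 on the fourth. Its mean was -0.11 ± 0.11 (95% interval -0.25 to 0.017; limma, adjusted p = 0.750). Il18 had -0.12, 0.20, -0.27 and 0.32, with both forward arrays negative and both swaps positive. The arrays of each pair nearly cancelled, leaving 0.033 ± 0.010.

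Il1rn, which encodes the receptor antagonist of interleukin 1, had a mean of -0.079 ± 0.047, and Il1f6, an agonist of the family made in skin, 0.029 ± 0.062. Of 8 further ligands and inhibitors of this family 3 were tested and 0 were called. The receptor Il1r1 had 0.23, -0.13, 0.31 and -0.20, split by dye, with a mean of 0.051 ± 0.0059. Casp1, the protease that matures interleukin 18, had -0.068 ± 0.078.

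The interleukin 10 family, whose skin members act on keratinocytes, had 3 tested genes. Il24 had 0.040, -0.037, -0.20 and -0.11, with a mean of -0.077 ± 0.11. Il19 had 0.19, -0.17, 0.23 and -0.083 by its brightest probe, again split by dye, with a mean of 0.044 ± 0.043. The other measured Il19 probe had -0.024, -0.10, 0.063 and 0.21 (mean 0.037) and was not split by dye. Il22 had -0.22, 0.011, -0.11 and -0.14 (mean -0.12 ± 0.017, 95% interval -0.24 to 0.0042, adjusted p = 0.749 in limma). It was negative on 3 arrays, and the mean was -0.18 with a normexp offset of 16 and -0.21 in the processed signals.

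The Il22 probe matches the near-identical gene Iltifb too, so its signal cannot be assigned to 1 of them, and its Cy5 intensities were low, from 69.1 to 116. Il22 is made by T cells and innate lymphoid cells. Of 5 T cell markers Cd3e was tested, with a mean of -0.043 ± 0.28, Cd3d, Cd2 and Thy1 were above background on no array, and Cd3g was on 1 array in each RNA.

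Growth and survival interleukins were also measured. Il7, which sustains lymphocytes in skin, had 0.078, -0.13, -0.014 and 0.00096 (mean -0.017 ± 0.015), and Il15, which sustains memory T cells and natural killer cells, had 0.069, -0.063, 0.14 and -0.052 (mean 0.024 ± 0.030, and 0.078 in the processed signals). Il34, the Csf1r ligand that maintains Langerhans cells, had -0.13, 0.070, 0.31 and 0.097. It was negative on 1 array and highest on the forward array of replicate 2, and its mean was 0.087 ± 0.17. Csf1, the other ligand of that receptor, measured by 3 probes, had -0.14, 0.096, 0.0026 and 0.019 by its brightest probe, with a mean of -0.0045 ± 0.022. The other probes had means of -0.049 and -0.042, and the mean over all of them was -0.032.

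Il16 was the 1 gene of the 30 with a positive ratio on all 4 arrays, which 3.67% of all tested genes had. This chemoattractant for CD4+ cells had 0.049, 0.094, 0.11 and 0.13, with a mean of 0.097 ± 0.036 (95% interval -0.024 to 0.22; limma, adjusted p = 0.752). That mean depended on the treatment of background: it was 0.14 with a normexp offset of 16 and 0.24 in the software's processed signals. Il16 had low Cy5 intensities, from 90.1 to 112. Its 4 values lay closer together than those of Il17d, Cx3cl1, Ccl5 and Il34, the other genes with the highest means. Those genes were brighter, with Cy5 intensities of 206 or more.

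Il17d had the highest mean of the 30 in the main ratios, and by its brightest probe the sign was not stable. With a normexp offset of 16, Il16 (0.14) and Ccl5 (0.13) exceeded it (0.12). In the processed signals Il16 (0.24), Ccl5 (0.15) and Cx3cl1 (0.144) exceeded it (0.142). With probe means Cx3cl1 did (0.111 against 0.108). The brightest Il17d probe had 0.023, -0.083, 0.21 and 0.30. By that probe replicate 1 averaged -0.030 and replicate 2 averaged 0.26 (mean 0.11 ± 0.20; limma, adjusted p = 0.776). The other measured Il17d probe had 0.24, -0.066, 0.28 and -0.043 (mean 0.10), positive on both forward arrays and negative on both swaps. Il17a, Il17b, Il17c and Il17f were not tested.

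Il23a, the p19 subunit of interleukin 23, had -0.18, -0.11, 0.14 and -0.19, negative on 3 arrays, with a mean of -0.085 ± 0.084. Its partner subunit Il12b was above background on no array. Il27, a subunit of interleukin 27, had a mean of 0.0099 ± 0.0059, and its partner Ebi3 had 0.00012 ± 0.013. Il11 had -0.086, 0.064, 0.0054 and 0.13 (mean 0.028 ± 0.055, and 0.11 in the processed signals). The interferon lambda gene Il28b had -0.12, 0.13, -0.36 and 0.13 (mean -0.057 ± 0.081), and its probe matches both Ifnl2 and Ifnl3.

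Tslp had 0.071, -0.099, 0.053 and -0.12, split by dye, with a mean of -0.023 ± 0.014. Among the colony-stimulating factors, Csf3, which drives neutrophil production, was negative on all 4 arrays with -0.057, -0.067, -0.012 and -0.18 (mean -0.080 ± 0.025; limma, adjusted p = 0.796). In the processed signals the Csf3 mean had the opposite sign, at 0.10. Csf2, which supports granulocytes and macrophages, had -0.015, 0.042, 0.045 and 0.046, with a mean of 0.029 ± 0.023. None of these genes passed.

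Several ratios changed sign with the dye. Of the 30 genes, 8 (26.7%) were brighter in the same dye on all 4 arrays, whichever RNA carried it, against 32.3% of all tested genes. They were Cxcl16, Il19, Il15, Ccl2 and Tslp in Cy5 and Il18, Il28b and Cxcl2 in Cy3. For Il19 this held by its brightest probe and not by its other measured probe. A dye effect of the same size on forward array and swap drops out of their average. Over all 17374 genes, ratios of 15p over 0p correlated at r = -0.55 between the arrays of replicate 1 and at -0.40 between those of replicate 2, and at 0.27 and 0.41 between arrays with the same dye on 15p. These correlations are across genes, and genes are not independent of each other.

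Every mean, order and call above takes the dyes as labelled, and whether they were exchanged as labelled was not tested. With the sign of the swaps turned, a setting chosen after seeing the data, the means of the 30 genes ran from -0.24 for Cxcl2 and -0.22 for Il18 to 0.21 for Cxcl16, and 14 of the 30 had another sign. The median was 0.0040. Of the 30 genes 0 were then called (lowest adjusted p = 0.107, limma, for Cxcl2) and 4 had an unadjusted p under 0.05. Of all 17374 genes 661 were called (3.8%), 443 with a positive and 218 with a negative ratio, and 14% had an unadjusted p under 0.05. The 95% interval lay within a 1.5-fold difference for all 30 genes and for 99.1% of all genes. In this setting a difference between the dyes and a difference between the RNAs cannot be told apart.

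The forward array of replicate 2 had the widest ratios, with an SD over all genes of 0.29 against 0.13 to 0.14 on the other 3 arrays. Of all tested genes 56.8% had their largest absolute ratio there, and of the 30 genes 10 did (33.3%). Over the 30 genes the SD on that array was 0.20, and it was 0.16, 0.099 and 0.16 on the others.

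**Figure D3:**
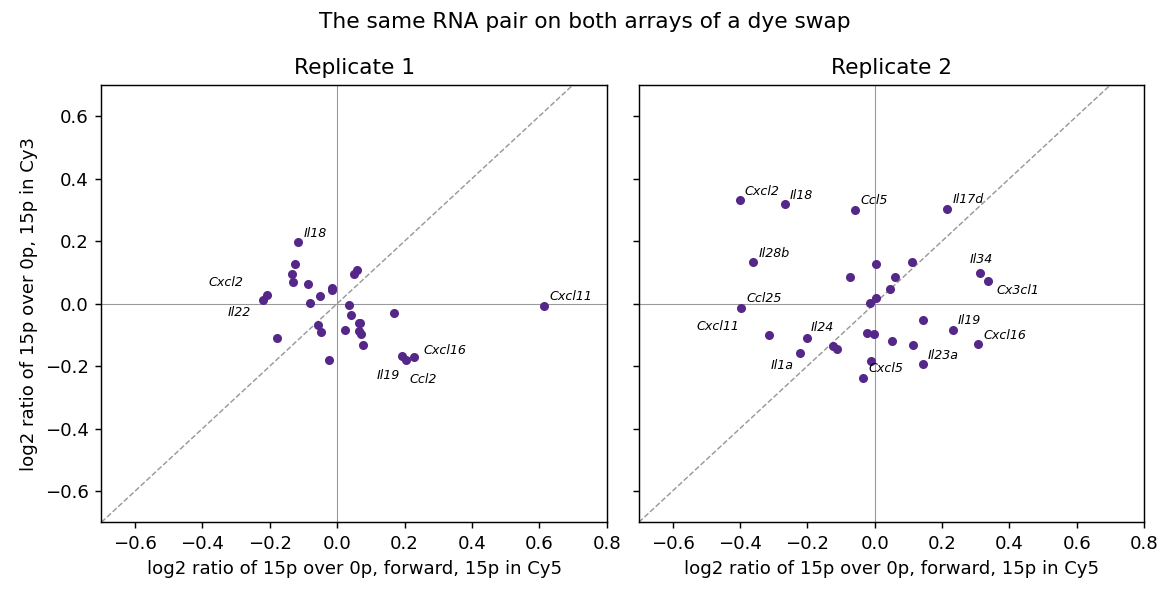
Log2 ratio of 15p over 0p on the forward array, 15p in Cy5 (horizontal axis), against the swap, 15p in Cy3 (vertical axis), for the 30 tested genes in each replicate; the dashed line marks equal ratios. Il18 and Cxcl2 lie in the upper left quadrant and Cxcl16 and Il19 in the lower right in both replicates, on opposite sides of 0 in the 2 arrays of a pair.

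Genes that receive and carry these signals did not pass either. Of 44 receptor genes for interleukins and related cytokines 27 were tested and 0 called, 17 with positive and 10 with negative means (median 0.033). Il6st, the gp130 subunit shared by the interleukin 6 family, had -0.12 ± 0.044, and Ifngr1, a subunit of the interferon gamma receptor, had 0.11 ± 0.092. Of 23 chemokine receptors only 4 were tested, and Cxcr7, a scavenger of Cxcl12 and Cxcl11, had 0.094 ± 0.069.

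In the NF-kappaB pathway 29 of 31 genes were tested and 0 called, with 16 positive and 13 negative means (median 0.023). The adaptor Traf3, which restrains the non-canonical branch, had -0.13 ± 0.11, and Nfkb2, the precursor of that branch, 0.12 ± 0.15. On single arrays Traf3 had -0.027, -0.070, -0.37 and -0.037, and Nfkb2 had -0.0041, 0.037, 0.49 and -0.030. Both means came mostly from the forward array of replicate 2. In the JAK-STAT pathway 18 of 21 were tested and 0 called, with 12 positive and 6 negative means (median 0.044). At an unadjusted p under 0.05, which 6.3% of all genes had, there were 2 of the 18, Socs1, a feedback inhibitor (0.15 ± 0.13), and Stat6, the mediator of interleukin 4 signals (0.14 ± 0.046). Both had an adjusted p of 0.749 in limma. Socs1 had 0.0058, 0.11, 0.39 and 0.11. Stat6 had 0.29, -0.078, 0.47 and -0.13, split by dye.

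Of 17 other cytokines 11 were tested and 0 called, among them Lif, a cytokine of the interleukin 6 family, at 0.13 ± 0.015 (unadjusted p = 0.0401, adjusted p = 0.749 in limma) and Cntf at -0.096 ± 0.16. On single arrays Lif had 0.21, 0.065, 0.38 and -0.15. Of 19 genes for processing and release 13 were tested and 0 called, with the calpain Capn2 at -0.088 ± 0.041. Of 6 chemokines outside the naming rule 3 were tested and 0 called, with Ppbp at -0.047 ± 0.0021 and Ccl21b at 0.027 ± 0.096. The arrays of Ppbp were split by dye, at -0.17, 0.082, -0.17 and 0.074.

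**Figure D4:**
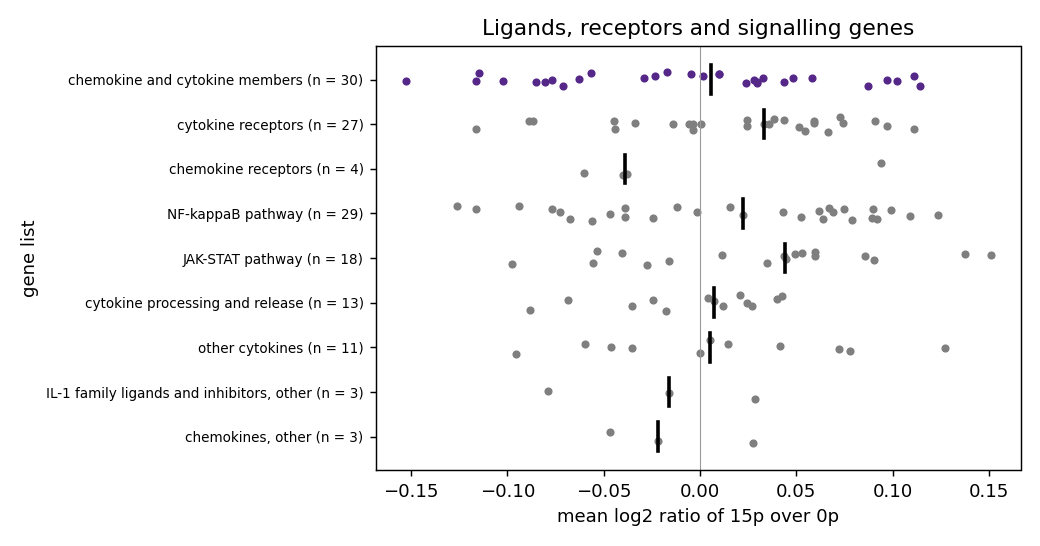
Mean log2 ratio of 15p over 0p (horizontal axis) for each tested gene in the cytokine set and in 8 lists of receptors, signalling genes and other ligands; points are genes, vertical bars list medians, and the vertical position within a list is arbitrary. The medians lie between -0.039 and 0.044.

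The labelled cell type was checked with marker genes. All 8 basal keratinocyte markers, Krt5, Krt14 and Trp63 among them, passed on all 4 arrays. Cd34, which encodes the second protein of the sort, passed on 1 array in 0p RNA and on none in 15p RNA, while Itga6, which encodes CD49f, passed on all 4 in both. Of 5 markers each, 1 was tested for T cells (Cd3e), 1 for Langerhans and dendritic cells (Cd74), 3 for macrophages (Csf1r, Cd68 and Mrc1), 1 for mast cells (Tpsb2), 2 for neutrophils (Elane and Camp) and 3 for endothelium (Pecam1, Kdr and Flt1). Of 6 fibroblast markers 1 was (Col3a1). The Langerhans marker Cd207 passed on 1 array in 0p RNA and on none in 15p RNA, and Itgax, H2-Aa, Ly6g and Mpo on none. For Cd34 and Cd207 such counts do not show a difference between the RNAs. No marker of any list was called. At an unadjusted p under 0.05 in limma, which 6.3% of all genes had, there were 2 of the 8 basal keratinocyte markers, Krt14 and Cdh3. The other marker lists had none. Krt14 had 0.085, 0.12, 0.73 and -0.18 (mean 0.19 ± 0.12), by far the highest on the forward array of replicate 2. Cdh3 had 0.45, -0.28, 1.1 and -0.45, split by dye (mean 0.20 ± 0.17).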

How the data were processed

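The authors deposited scanner files with mean spot and local background intensity in Cy3 and Cy5, extracted with Agilent Feature Extraction 10.7.3.1 per the file headers and the submitters' processing notes. The files' log10 ratio of Cy5 over Cy3 and the processed intensity were deposited too, dye-normalised by that software per the file headers, and served as alternatives. So did the series' matrix of deposited log10 ratios, whose columns had medians of 0 and whose scale and direction were found by matching it to the scanner ratios (largest difference 0.0045). Other deposited columns are flags of 0 or 1.

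Background was corrected by normexp (offset 50, fitted on all spots) and dyes by loess within arrays, in R 4.3.3 with limma 3.58.1 and data.table (version 1.17.8). Irregular spots were left out, spots of a probe averaged, and the brightest kept probe stood for its gene. A probe counted as above background where most of its spots carried the flag. Ratios were turned to 15p over 0p, pairs of arrays averaged, and the 2 replicate values tested against 0 (lmFit and eBayes, two-sided). Each replicate's values also stand alone above. The sample titles make same-numbered arrays the dye swap of 1 biological replicate, which is why they were averaged as pairs; their departures from the average of arrays with the same dye on 15p correlated at r = -0.26.

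The members and gene lists were chosen with earlier results of these data known. Named were members called, the 12 with the largest mean ratios, those of one sign on all arrays, well-known skin cytokines, and from each list of related genes the called or the 2 with the largest ratios; other genes of these lists were named after their values were seen.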

Additional observations from a re-analysis of the deposited data

How the results depend on the processing

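No member was called with another normexp offset, the software's processed signals, the deposited ratios, quantile scaling, other filters, probe means, unpaired arrays or a replicate block with a dye term. The fit with the replicate block is the average over pairs in another form, so its values (0 of 17374 genes and 0 members called, 1095 genes at an unadjusted p under 0.05) were bound to be equal. With unpaired arrays 323 genes reached that level. Without the filter on dim probes 1 gene was called, no member. Members with 1 sign on all 4 arrays numbered 4, but 1 in the processed signals, 1 in the deposited ratios and 2 after quantile scaling. The median ratio of members was 0.0026 without the filter, -0.0052 with probe means and 0.0015 without Cxcl11. Of 30 signs of member means, 3 changed in the processed signals (Ccl19, Tslp and Csf3), 4 without replicate 1, 7 without replicate 2 (Il17d, Il34, Ccl6, Il11, Cxcl3, Il28b and Il24) and 6 without the forward array of replicate 1.

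Some alternatives were chosen after seeing the data: leaving out 1 array, leaving out Cxcl11, and turning the swaps. With the swaps turned, 661 genes and 0 members were called and 8 members had 1 sign on all 4 arrays. Over the settings that leave out an array or a replicate, the median ran from -0.019 to 0.015 and the members well above background from 30 to 32. Leaving out 1 array gave 0 to 3120 called genes and 0 to 4 called members. Without the forward array of replicate 1, 3120 genes (18%) and Ccl25, Cx3cl1, Cxcl11 and Il34 were called. Without that of replicate 2, 88 genes and Cxcl11 were called. Cxcl11 had -0.18 in the first and 0.28 in the second. Both fits used 1 spread for all genes and assumed that the lone forward array varied like the swaps. Without a whole replicate no residual degree of freedom is left, so no count of calls exists. The number of arrays and the low signal of the 42 genes not tested limit what could be seen.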
